A study of Mus musculus with 6 samples.

Results

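This account covers 10 transcription factor genes of the early neural tube, taken by symbol from 18193 genes measured in whole mouse embryos at embryonic day 8.5. They are the neural progenitor genes Sox1, Sox2, Sox3 and Sox21, the patterning genes Pax6, Irx3, Nkx6-1 and Olig2, and the neurogenic genes Neurog1 and Neurog2. All 10 were measured, by 18 probe sets in all. RNA from 3 embryo samples of genotype Fz2+/+; Fz7-/- (single knockout) was compared with RNA from 3 samples of genotype Fz2-/-; Fz7-/- (double knockout), each on 1 single-colour array. Every sample came from a mixed C57BL6/129 background and lacked Fz7, so the question was what loss of Fz2 adds to loss of Fz7. Fz2 and Fz7 (gene symbols Fzd2 and Fzd7) are Frizzled receptors for Wnt ligands. Neither pooling nor litter is stated in the labels, so each p-value reflects only how much these samples vary, and some of that variation may be technical. Wild-type embryos were not analysed here.

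Sox1, Sox2 and Sox3 form the SoxB1 group, closely related activators that keep neural cells in a dividing progenitor state, and Sox21 belongs to the opposing SoxB2 group of repressors. Along the dorsal to ventral axis of the neural tube, Sonic hedgehog represses Pax6 and Irx3 and induces Nkx6-1 and Olig2, and the mutual repression of these factors sets up progenitor domains. Neurog1 and Neurog2 are proneural basic helix-loop-helix factors that start neuronal differentiation, and Olig2, a related factor, marks the progenitors of motor neurons. At this stage the neural plate is folding into a tube and the first neurons are only beginning to form.

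Promoter windows, the 250 bases before a RefSeq start site (GRCm38.p6), were matched for 9 of the 10 genes in 10 windows, and Sox3 was not among them. The windows were searched on both strands for an E-box (CANNTG), which basic helix-loop-helix factors bind, for the TCF/LEF core (CTTTGA), which Wnt effectors bind, and for a Sox motif (ACAATG), the TATA box (spelled TATAAA) and the box with the letters CCAAT. Matches to the last 4 are in capitals in the 3 windows below, and no matches overlapped one another. The windows belong to the gene with the largest difference between the groups, to the only one of these genes whose values all lay higher in the double knockout, and to a proneural gene whose probe sets disagreed. Olig2 lies on the plus strand at chr16:91225300-91225549, Sox21 on the minus strand at chr14:118237031-118237280 and Neurog1 on the minus strand at chr13:56252181-56252430, each printed 5′ to 3′ on the gene's own strand.
Olig2: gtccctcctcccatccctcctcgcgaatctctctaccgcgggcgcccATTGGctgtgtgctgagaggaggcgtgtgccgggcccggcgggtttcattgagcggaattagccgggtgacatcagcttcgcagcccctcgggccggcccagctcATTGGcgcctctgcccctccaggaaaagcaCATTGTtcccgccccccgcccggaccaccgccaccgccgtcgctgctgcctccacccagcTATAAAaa
Sox21: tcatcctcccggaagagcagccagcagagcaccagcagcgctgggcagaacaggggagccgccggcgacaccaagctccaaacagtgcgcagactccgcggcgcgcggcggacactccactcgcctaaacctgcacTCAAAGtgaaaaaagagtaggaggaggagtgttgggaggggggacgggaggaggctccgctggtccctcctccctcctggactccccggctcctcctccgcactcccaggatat
Neurog1: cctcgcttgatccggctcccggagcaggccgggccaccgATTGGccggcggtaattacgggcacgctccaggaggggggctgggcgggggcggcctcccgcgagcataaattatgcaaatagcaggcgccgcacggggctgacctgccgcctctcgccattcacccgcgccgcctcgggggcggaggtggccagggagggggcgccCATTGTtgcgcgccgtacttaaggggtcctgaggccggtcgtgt
The Olig2 window held a Sox motif starting 68 bases before the start site, CCAAT boxes at 203 and 98 bases and a TATA box at 8 bases. The Neurog1 window also held a Sox motif, at 44 bases, and a CCAAT box at 211 bases. The Neurog2 window held none of the motifs searched, and its start site lies inside the annotated gene. Sox21 had the only TCF/LEF core among the 10 windows, at 114 bases, where 13.8% of 32851 mouse promoter windows of this length hold one. The Sox motif was present in 2 of the 10 windows and in 10.7% of all windows, the CCAAT box in 5 and in 33.8%, and the TATA box in 1 and in 12.4%. An E-box was present in 1 of the 10 windows, at the second Pax6 start site, and in 66.2% of all windows.

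Before the genes themselves, 3 properties of the arrays bear on them. Fzd2 separated the groups as labelled, at 9.86 to 10.01 on the log2 scale in the single knockout and 7.30 to 7.69 in the double knockout. Double knockout replicate 1 stood apart, correlating with the other arrays at 0.986 to 0.990 across genes, where those correlated with each other at 0.997 to 0.998. In that array the mean level of 7 visceral endoderm markers was 12.04, against 9.02 to 9.58 elsewhere, with all 7 above every other array. The mean of 5 primitive red cell markers was 5.08 there, 7.77 in double knockout replicate 3 and 10.1 to 10.6 in the other 4 arrays. Replicate 1 was above all other arrays for 4 of 6 epiblast, 6 of 7 primitive streak and 4 of 6 trophoblast markers. Of all 18193 genes, 4598 were above the other 5 arrays there and 5375 below. The epiblast gene Tdgf1 (5.87), the primitive streak gene Fgf8 (7.57) and the extraembryonic ectoderm gene Elf5 (4.72) were below all other arrays there. The mean of 9 neural plate and tube markers, which include Sox1, Sox2, Sox3 and Pax6, was 7.79 there and 8.46 to 8.65 elsewhere. The markers did not move alike, as 6 were below all other arrays there and 2, Fabp7 (9.49) and Zic2 (7.77), above them. Zic1 and Pax6 lay furthest below their single knockout means, at -4.57 and -2.58. In double knockout replicates 2 and 3 Zic1 was low as well, at -1.23 and -1.56, whereas Pax6 lay at 0.16 in both. How far these tissues account for the values of the 10 genes in double knockout replicate 1 was not tested. The labels call each sample mixed in gender. Yet Xist, the RNA of the inactive X, read 12.46 to 12.77 in single knockout replicate 2 and double knockout replicates 1 and 3 and 5.58 to 5.84 in the other 3 arrays. The Y-linked gene Eif2s3y read 3.30 to 3.40 and 9.12 to 9.41 in the same sets, so no array was high for both. Differences of the genes named below are therefore given with and without double knockout replicate 1. In whole embryos fewer cells of a type and less RNA per cell cannot be told apart.

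Of the 10 genes, none passed the test across all genes (limma, Benjamini-Hochberg adjusted p under 0.05), where 0.00550% of genes passed. The lone gene to pass was Fzd2. Olig2 and Neurog2 nevertheless read lower in each double knockout array than in any single knockout array, at about 40% to 44% of the single knockout level. The differences of 6 genes lay within 0.2 log2 units of 0 (Sox1, Sox2, Sox3, Sox21, Irx3 and Neurog1), as for 88.2% of all genes, and Pax6 and Nkx6-1 read low in double knockout replicate 1 only. At an unadjusted p under 0.05 there were 3 of the 10 genes, against 4.96% of all genes, and groups did not overlap for the same 3, against 11.4%. The 10 genes and the wider lists below were chosen with earlier results of these data known. Such counts beside the share of all genes are therefore descriptive, here and below, and no test of enrichment. The median difference over the 10 genes was 0.01, and over all genes -0.01, but -0.17 over the 10 genes when the probe sets of a gene were averaged. Without double knockout replicate 1 these medians were 0.09 and -0.01, and an unadjusted p under 0.05 was reached by 5 of the 10 genes, 2 lower and 3 higher, against 6.67%, 3.76% and 2.91% of all genes. Groups then did not overlap for the same 5 genes, against 22.3% of all genes. Again none passed after adjustment, where 0.00550% of genes did.

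**Figure D1:**
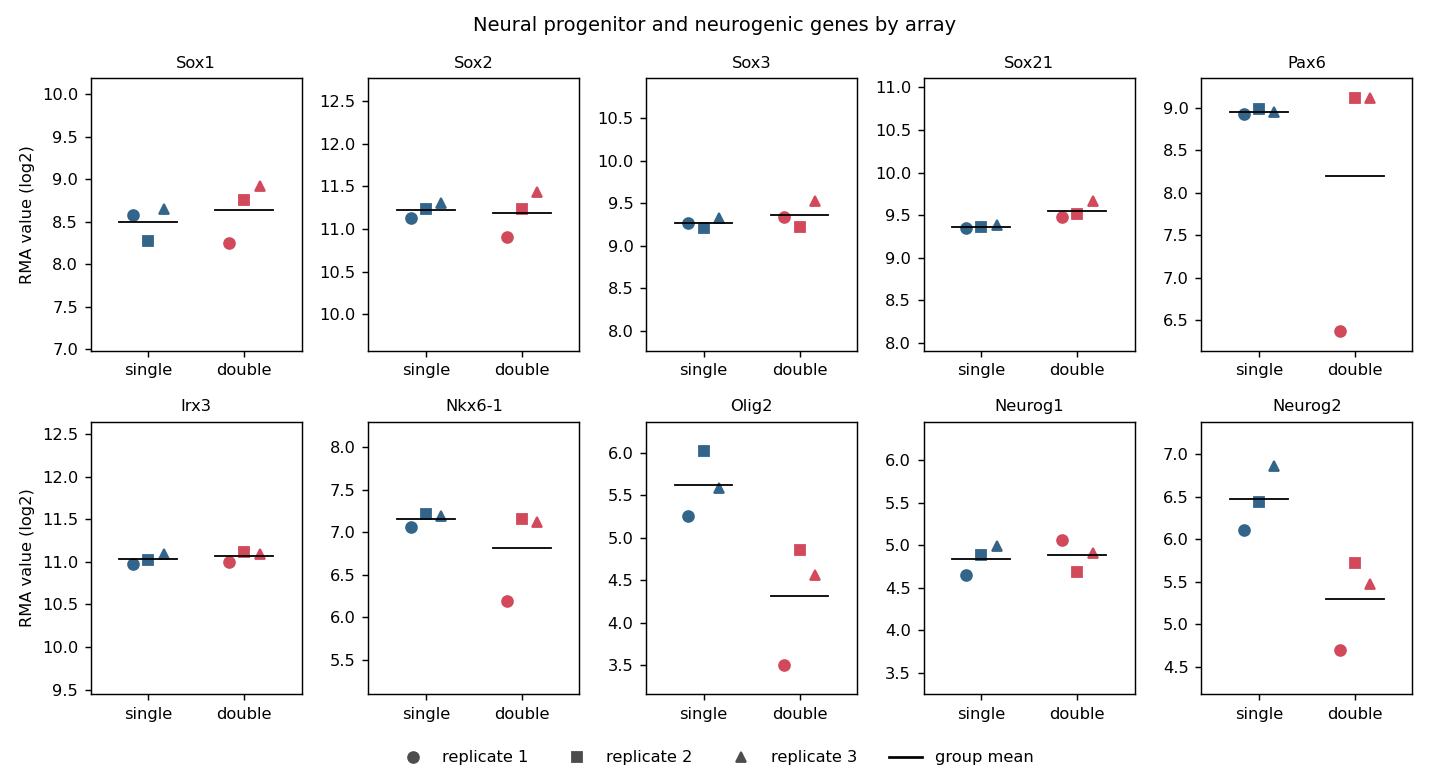
RMA values (log2, vertical axis) of the 10 genes in the 3 single knockout (blue) and 3 double knockout (red) arrays, with the marker shape giving the replicate and the line the group mean; every panel spans the same number of log2 units, though not the same range. Olig2 and Neurog2 lie lower in all 3 double knockout arrays, at 3.51 to 4.86 and 4.70 to 5.72, whereas Pax6 and Nkx6-1 lie apart in replicate 1 only, at 6.37 and 6.19.

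Among the SoxB1 genes, Sox2 had values of 11.13, 11.23 and 11.30 in the single knockout and 10.91, 11.24 and 11.43 in the double knockout, each time in the order of replicates 1 to 3. The double knockout values surrounded those of the single knockout. The difference was -0.03 (SE 0.14, n = 3 per group, 95% interval -0.35 to 0.30, limma adjusted p = 0.976), and 0.11 without double knockout replicate 1. Sox2 is the most widely used marker of neural progenitors and is also expressed by the epiblast and by extraembryonic ectoderm.

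Sox1, the SoxB1 gene most restricted to neural tissue, read 8.58, 8.28 and 8.65 in the single knockout and 8.25, 8.76 and 8.92 in the double knockout on its brighter probe set. Double knockout replicate 1 was the lowest of the 6 arrays and replicates 2 and 3 were the highest. The difference was 0.14 (SE 0.19, 95% interval -0.32 to 0.60, limma adjusted p = 0.911). Without replicate 1 the groups did not overlap and the difference was 0.34 (SE 0.12, limma adjusted p = 0.725). A dimmer Sox1 probe set differed by 0.10, and by 0.04 without replicate 1.

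Sox3, which lies on the X chromosome, read 9.26, 9.21 and 9.33 in the single knockout and 9.33, 9.23 and 9.53 in the double knockout. The groups overlapped, with a difference of 0.10 (SE 0.09, 95% interval -0.12 to 0.31, limma adjusted p = 0.880), and 0.11 without double knockout replicate 1. In the 3 arrays with high Xist the values were 9.21, 9.33 and 9.53, and in the others 9.23, 9.26 and 9.33, so the sets overlapped as well. The second Sox3 probe set differed by 0.08, and by 0.011 without double knockout replicate 1.

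Sox21, the SoxB2 repressor, was the only one of the 10 genes with every double knockout value above every single knockout value. It read 9.34, 9.36 and 9.38 in the single knockout and 9.48, 9.51 and 9.67 in the double knockout. The difference was 0.19 (SE 0.07, 95% interval 0.03 to 0.35, limma adjusted p = 0.872), or 114% of the single knockout level, and 0.23 without replicate 1. Groups did not overlap in this direction for 4.85% of all genes. An exact two-sided permutation test gave p = 0.1, below which a comparison of 3 with 3 arrays cannot go. On its other probe set Sox21 read 7.49, 7.89 and 7.91 against 7.74, 7.92 and 8.53, where the groups overlapped and the difference was 0.30 (SE 0.22), or 0.46 without replicate 1.

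Among the patterning genes, Irx3, which Sonic hedgehog represses, read 10.98, 11.02 and 11.09 in the single knockout and 11.003, 11.12 and 11.09 in the double knockout. Its difference of 0.04 (SE 0.06, 95% interval -0.11 to 0.19, limma adjusted p = 0.917) had the narrowest interval of the 10 genes, and was 0.07 without double knockout replicate 1. The double knockout values lay within or just above the single knockout range.

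Pax6, a homeodomain factor of the eye field, forebrain and intermediate neural tube, read 8.92, 8.98 and 8.95 in the single knockout and 6.37, 9.11 and 9.11 in the double knockout. Relative to the single knockout mean, replicate 1 lay at -2.58 and replicates 2 and 3 at 0.16. The group difference was -0.75 (SE 0.72, 95% interval -2.49 to 0.98, limma adjusted p = 0.881). Without replicate 1 it was 0.16 (SE 0.06, limma adjusted p = 0.708), with groups that did not overlap. Pax6 had 5 probe sets, which did not act alike.

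The second brightest Pax6 probe set showed the same low value in replicate 1, at 4.89 against 6.64 to 6.93 in the other 5 arrays. The third brightest read 6.02 in replicate 1, within the 5.997 to 6.09 of the others. The fourth read 5.45 to 5.51 in the single knockout and 5.30 to 5.34 in the double knockout, a difference of -0.17 (SE 0.06, adjusted p = 0.920 in limma over all probe sets), or -0.18 without replicate 1. The dimmest read 4.43 in replicate 1 and 4.75 to 4.96 in the others. These dimmer probe sets, the second brightest included, read below the median gene level of 7.10. RMA values compress differences there, but whether this bears on the disagreement of the Pax6 probe sets was not tested.

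**Figure D2:**
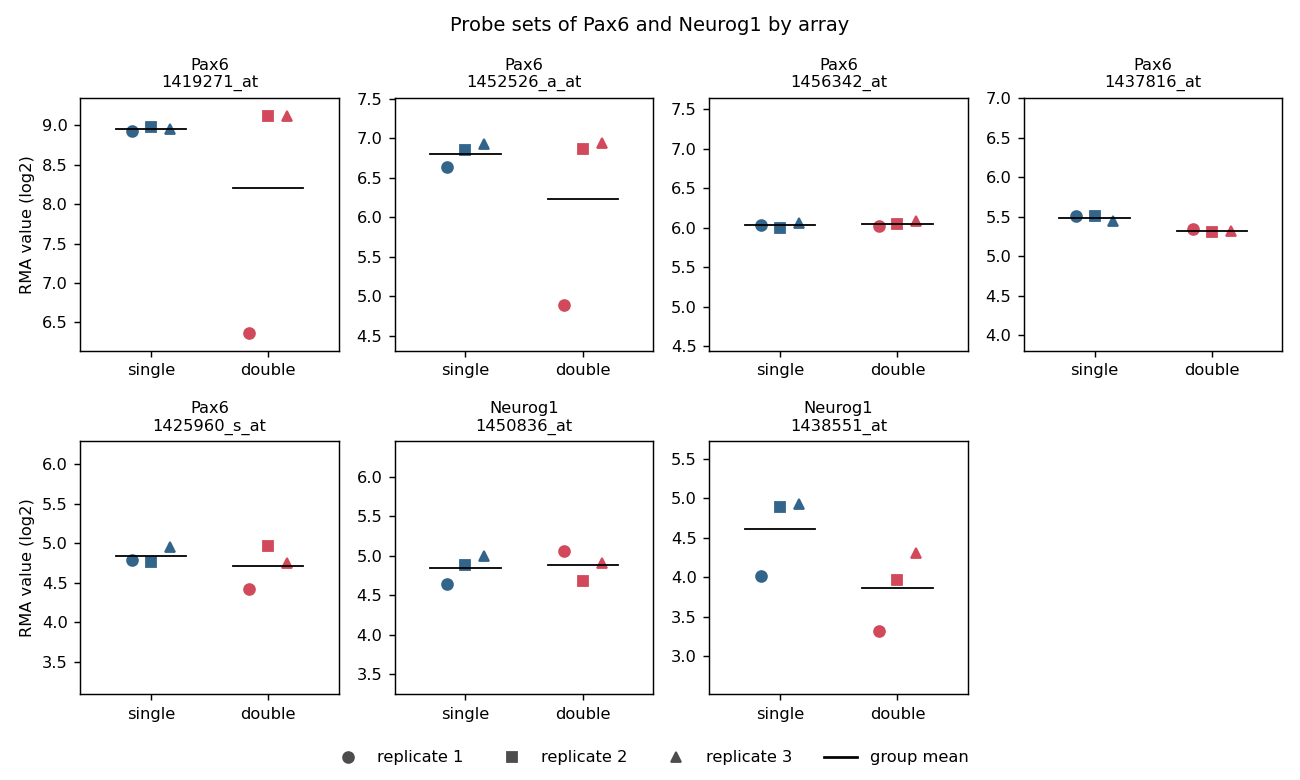
RMA values (log2, vertical axis) of the 5 Pax6 and 2 Neurog1 probe sets in the single knockout (blue) and double knockout (red) arrays, in panels of equal span, with marker shapes for replicates and lines for group means. The low Pax6 value of double knockout replicate 1 appears on the brightest probe sets, at 6.37 and 4.89, and not on the third, at 6.02, and the Neurog1 probe sets differ from each other in that array, at 5.06 and 3.32.

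Nkx6-1, a homeodomain factor of the ventral neural tube and later of pancreatic beta cells, read 7.06, 7.21 and 7.19 in the single knockout and 6.19, 7.15 and 7.12 in the double knockout. Only replicate 1 lay outside the single knockout range. The difference was -0.34 (SE 0.26, 95% interval -0.95 to 0.28, limma adjusted p = 0.872), and -0.02 without that array. Replicate 1 was more than 0.5 log2 units below the lowest of the other 5 arrays for 4 of the 10 genes, namely Pax6, Nkx6-1, Olig2 and Neurog2, and for 2.90% of all genes. It was below the other 5 by any amount for 6 of the 10, with Sox1 and Sox2 added, and for 29.5% of all genes.

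Olig2, which directs the motor neuron progenitor domain, had the largest difference of the 10 genes. It read 5.25, 6.02 and 5.59 in the single knockout and 3.51, 4.86 and 4.57 in the double knockout. All 3 double knockout values lay below the lowest single knockout value. The difference was -1.31 (SE 0.37, 95% interval -2.21 to -0.42, limma unadjusted p = 0.0110, adjusted p = 0.872), or 40.3% of the single knockout level, and the exact permutation p was 0.1. Without double knockout replicate 1 it was -0.91 (SE 0.22, limma adjusted p = 0.701), or 53.3%. A mean lower by more than 1 log2 unit was seen for 2 of the 10 genes, Olig2 and Neurog2, and for 0.236% of all genes. As the genes were chosen with earlier results known, this count is descriptive only.

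Neurog2, which starts neuronal differentiation in much of the neural tube, read 6.11, 6.44 and 6.86 in the single knockout and 4.70, 5.72 and 5.47 in the double knockout. The groups again did not overlap. The difference was -1.17 (SE 0.30, 95% interval -1.90 to -0.45, limma unadjusted p = 0.00684, adjusted p = 0.872), or 44.3% of the single knockout level, with an exact permutation p of 0.1. Without double knockout replicate 1 it was -0.88 (SE 0.21, limma adjusted p = 0.701), or 54.4%. Groups did not overlap on the lower side for 6.60% of all genes, or 12.3% without replicate 1.

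Olig2 and Neurog2 shared the order of the double knockout arrays, with replicate 1 lowest and replicate 2 highest, and both were lowest in single knockout replicate 1 within that group. Among arrays with high Xist, Neurog2 read 6.44 in the single knockout and 4.70 and 5.47 in the double knockout, and among the others 6.11 and 6.86 against 5.72. Olig2 read 6.02 against 3.51 and 4.57, and 5.25 and 5.59 against 4.86. Because the groups did not overlap for either gene, any such split had to show the double knockout lower. It is therefore no test of the part of sex. Both genes have 1 probe set on the array and read below the median gene level. In double knockout replicate 1, where Olig2 read 3.51, the lowest probe set read 2.64 and the median probe set 5.80. Olig2 read below its array's median probe set in every array but single knockout replicate 2. Whether Olig2 was detected in any of the arrays was not tested.

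A further comparison, chosen after the values were seen, set each of the other genes against the mean of Sox1, Sox2 and Sox3 on the same array. That mean was 9.66, 9.57 and 9.76 in the single knockout and 9.50, 9.74 and 9.96 in the double knockout, and the groups overlapped. Relative to it, Olig2 differed by -1.38 and Neurog2 by -1.24, with groups that did not overlap and an exact permutation p of 0.1 for each. The SoxB1 mean itself differed by only 0.07 between the groups. These values therefore largely repeat the unscaled -1.31 and -1.17 and are no separate support for them. Without double knockout replicate 1 these were -1.10 and -1.06. Sox21 differed by 0.12 on this scale, with groups that overlapped, and by 0.040 without that array. Pax6 and Nkx6-1 differed by -0.82 and -0.40, also with groups that overlapped, and by -0.03 and -0.21 without that array.

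Neurog1, the close relative of Neurog2 that initiates neurons of the cranial ganglia, gave 2 different readings. On the brighter probe set it read 4.65, 4.89 and 4.996 in the single knockout and 5.06, 4.69 and 4.91 in the double knockout, with a difference of 0.04 (SE 0.13, 95% interval -0.26 to 0.35, limma adjusted p = 0.961). Without double knockout replicate 1 that difference was -0.046, on the other side of 0. On the other it read 4.01, 4.89 and 4.93 against 3.32, 3.96 and 4.30. There the groups overlapped through single knockout replicate 1, and the difference was -0.75 (SE 0.32, adjusted p = 0.920 in limma over all probe sets), or -0.48 without double knockout replicate 1. The mean of the probe sets differed by -0.35. Both probe sets were dim, and which of them follows Neurog1 mRNA was not tested.

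**Figure D3:**
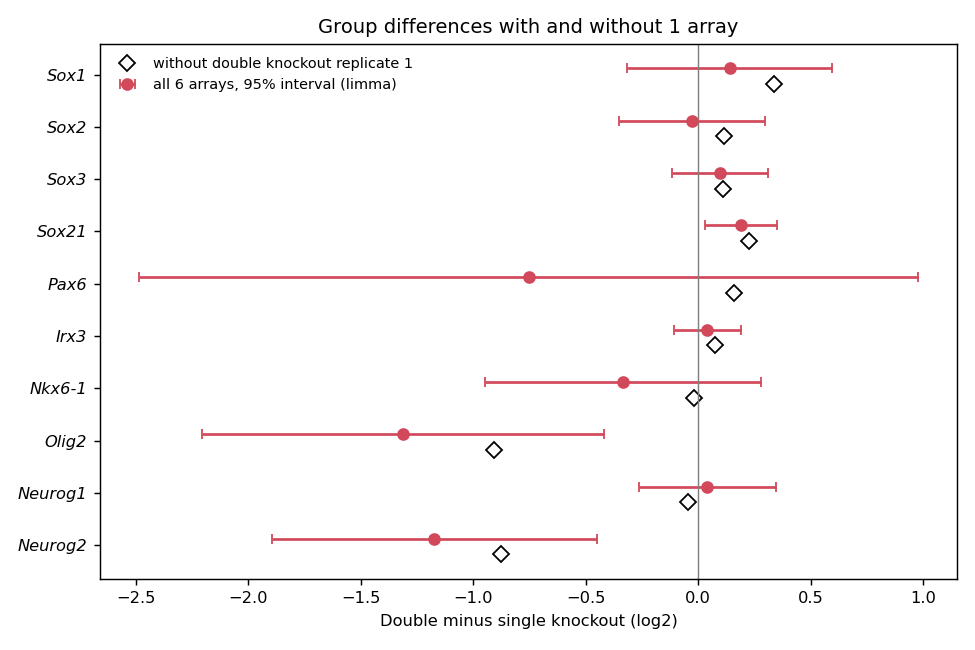
Difference between group means (double minus single knockout, log2, horizontal axis) for each of the 10 genes, with all 6 arrays (red points, bars for 95% limma intervals) and without double knockout replicate 1 (open diamonds). Olig2 and Neurog2 lie below 0 in either case, at -1.31 and -1.17 or -0.91 and -0.88, whereas Pax6 moves from -0.75 to 0.16.

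The genes with the most similar profiles were sought by the root mean square difference of centred log2 values over the 6 arrays, among 8908 brighter genes. For Neurog2, whose own root mean square swing was 0.70, they were Postn, a matrix protein gene, at 0.20 and the Notch effector Hes5 at 0.24. For Olig2, with a swing of 0.81, they were Minar2 at 0.22 and the matrix gene Emilin2 at 0.27. For Pax6, with a swing of 0.99, they were the cardiac sarcomere genes Myh6 at 0.07 and Ttn at 0.12, which share the low value of double knockout replicate 1. For Nkx6-1, with a swing of 0.36, they were Fam78a and the formin gene Fhod3, at 0.04 and 0.05.

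The other 6 genes had swings of 0.05 to 0.24 around their own means. Sox2 was nearest to Utrn and Fam217b (0.03 each), Sox1 to Pik3r3 (0.09) and Sirpa (0.10), and Sox21 to Ackr1 (0.03) and Ccdc28b (0.04). Sox3 was nearest to Porcn, the gene for the enzyme that acylates Wnt ligands (0.03), and to Dot1l (0.04). Irx3 was nearest to Entr1 (0.01) and Tmpo (0.02), and Neurog1 to Gpx3 (0.05) and Trdmt1 (0.06).

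The wider lists placed these genes among others of the same roles, and no member of any list passed the limma test over all genes. Of 21 genes of progenitor maintenance, 15 differed below 0 and 6 above, with a median of -0.14 (-0.02 without double knockout replicate 1, where 12 were below 0) and 0 past the threshold in either direction. Of all 18193 genes, 9786 differed below 0, or 9689 without that array. An unadjusted limma p under 0.05 was reached by 2 of the 21 listed genes on the lower side, against 3.00% of all genes. On the higher side 0 of the 21 reached it, against 1.96% of all genes. Hes5, a Notch effector that keeps progenitors from differentiating, read 7.76, 7.77 and 7.85 in the single knockout and 6.04, 7.40 and 7.07 in the double knockout. Its groups did not overlap, with a difference of -0.96 (SE 0.33, limma adjusted p = 0.872), or -0.56 without replicate 1.

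Notch1, the receptor upstream of Hes5, read 9.69, 9.75 and 9.69 in the single knockout and 9.35, 9.45 and 9.60 in the double knockout, a difference of -0.24 (SE 0.07, limma adjusted p = 0.872), or -0.18 without replicate 1. Its groups did not overlap either. Pou3f1, a POU factor of the early neural plate, differed by 0.34 (SE 0.14), or 0.31 without replicate 1, with groups that overlapped.

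Of 21 genes of dorsoventral patterning, 12 differed below 0 (also 12 without double knockout replicate 1) and 9 above, with a median of -0.03 (-0.06 without it) and 0 past the threshold in either direction. The smallest unadjusted p values belonged to Msx2, a dorsal homeobox gene, at 0.24 (SE 0.10), to Irx5, the neighbour and relative of Irx3, at 0.14 (SE 0.06), and to Nkx2-9, a ventral Hedgehog-responsive gene, at -0.29 (SE 0.13). They differed by 0.14, 0.10 and -0.19 once double knockout replicate 1 was left out. Groups did not overlap for Msx2 and Irx5. Each had a limma adjusted p of 0.872.

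Of the 21 proneural and early neuron genes measured, from a list of 23, 12 differed below 0 (also 12 without double knockout replicate 1) and 9 above, with a median of -0.05 in either case and 0 past the threshold in either direction. Stmn2, a microtubule regulator of growing neurons, read 8.90, 8.61 and 8.83 in the single knockout and 9.21, 8.97 and 9.20 in the double knockout. Its difference was 0.34 (SE 0.11, limma adjusted p = 0.872), opposite in sign to that of Neurog2, and 0.30 without replicate 1. Elavl4, a neuronal RNA-binding protein gene, differed by -0.40 (SE 0.15) and Hes6, a Notch antagonist, by -0.11 (SE 0.05), or by -0.28 and -0.10 without replicate 1. Differences over the whole list ranged from -0.43 to 0.34.

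**Figure D4:**
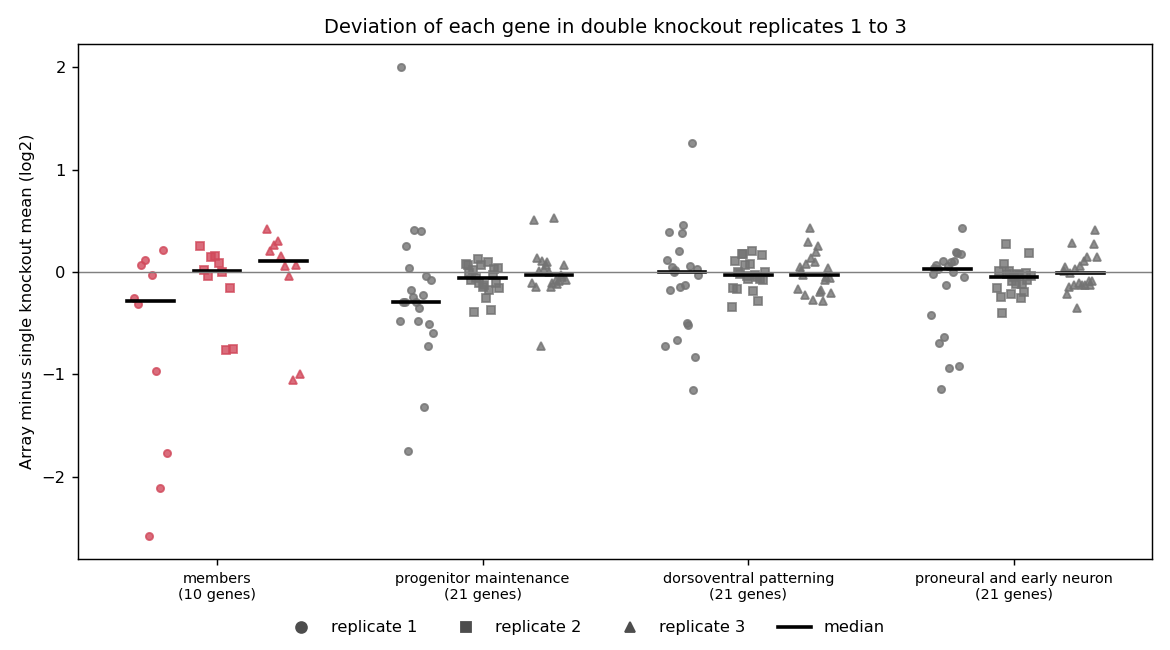
Deviation of each gene from its single knockout mean (log2, vertical axis) in double knockout replicates 1 to 3, for the 10 genes (red) and 3 wider lists of 21 measured genes each (grey), with lines for medians. Replicate 1 has the widest spread in every list, and for the 10 genes its median is -0.28 against 0.01 and 0.11 in replicates 2 and 3, where Olig2 and Neurog2 are the points from -1.05 to -0.75.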

How the data were processed

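The deposited table holds log2 values of 45101 probe sets on 6 arrays, which the authors made with RMA per the submitters' processing notes, which adjusts background, equalises the arrays' distributions and summarises each probe set. RMA understates differences of dim genes. The sources used here give neither its version nor the probe definitions. Groups and replicate numbers came from the sample titles. Of the probe sets, 34945 had 1 gene symbol in the platform annotation. For each of 18193 genes the brightest probe set over all arrays was tested, and the other probe sets of the 10 genes are given beside it. Gene identifiers of all 10 matched RefSeq (GRCm38.p6).

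Groups were compared with limma 3.58.1 under R 4.3.3 (lmFit, eBayes, two-sided, Benjamini-Hochberg adjustment over all genes, threshold 0.05), checked on simulated data, and with exact two-sided permutation tests. The simulated noise left out double knockout replicate 1, so that check does not cover the spread which this array adds. Members and lists were chosen with earlier results of these data known. Named from each wider list were genes past the threshold or, with none, the 3 lowest by unadjusted p. From the profile search the nearest 2 genes are named. Alternatives covered a replicate block, moderation, a filter on dim genes, probe set choice, scaling, array weights, the threshold and each array left out. A Y-linked covariate and scaling to SoxB1 genes were added after the data were seen. Deviations from the group mean correlated at 0.09, -0.04 and -0.13 between arrays of equal replicate number. Such deviations cancel out within a group, and double knockout replicate 1 stood apart, so these correlations cannot decide whether arrays were paired. Precision is limited by the number of arrays.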

Additional observations from a re-analysis of the deposited data

How the results depend on the processing

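Olig2, Neurog2, Sox1, Sox3, Sox21, Irx3 and Nkx6-1 kept their direction in every limma alternative in which they were measured, with Olig2 between -1.58 and -0.91 and Neurog2 between -1.39 and -0.88. Some came close to 0, as the smallest differences were 0.0017 for Sox1, 0.013 for Sox3, 0.014 for Irx3 and -0.020 for Nkx6-1. For Sox21 the smallest was 0.13. With the replicate block on all 6 arrays 1 gene passed and none of the 10 did. Olig2 then had an SE of 0.16 (limma adjusted p = 0.521) and Neurog2 an SE of 0.16 (limma adjusted p = 0.546). With the block and double knockout replicate 1 left out, 12 genes passed, 1 of them among the 10, Olig2 (-1.09, limma adjusted p = 0.0231). That fit pairs arrays by replicate number, a pairing that the labels do not state and that the correlations of deviations cannot decide. Single knockout replicate 1 then has no partner, so the difference rests on replicates 2 and 3 alone. The same setting gave 0.068 for Sox2, 0.15 for Pax6 and -0.14 for Neurog1, each on the other side of 0. Leaving out 1 array at a time gave 0 to 1 genes past the threshold, -0.15 to 0.11 for Sox2, -1.21 to 0.16 for Pax6 and -0.057 to 0.14 for Neurog1, with a median over the 10 genes of -0.072 without double knockout replicate 3. Array weights gave 0.058 for Sox2, -0.052 for Neurog1, -0.11 for Pax6 and -0.12 for Nkx6-1. The mean of probe sets gave -0.35 for Neurog1, -0.32 for Pax6, a median over the 10 genes of -0.17 and 0 genes past the threshold, and testing every probe set gave 2. The Y-linked covariate gave -0.016 for Neurog1 and 0 genes. Relative to the SoxB1 mean, Irx3 and Neurog1 both differed by -0.029, and by -0.11 and -0.23 without double knockout replicate 1. With dim genes left out, Nkx6-1, Olig2, Neurog1 and Neurog2 were not tested. The cause of these shifts was not tested.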
